A study of Mus musculus with 8 samples.

Results

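The 10 genes described here govern the exit from the cell cycle. They are the CDK inhibitor genes Cdkn1a, Cdkn1b, Cdkn1c and Cdkn2a, the pocket protein genes Rb1 and Rbl1, the E2F transcription factor genes E2f1 and E2f3, and the D cyclin genes Ccnd1 and Ccnd2. They were chosen by name, for their function, out of 21627 protein-coding genes on chromosomes 1 to 19 and X. A chromatin loop was assigned to a gene when either of its anchors overlapped the gene body widened by 5 kb on each side. A topologically associating domain (TAD) was assigned when it touched the gene body, and a CTCF peak when it lay in the widened gene body.

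The study mapped chromatin contacts by Hi-C in lens fiber cells and lens epithelium of newborn mice and in mouse embryonic stem (ES) cells, with ChIP-seq for CTCF in both lens cell types. The ES cells were the wild-type line v6.5, a single male line of mixed strain background. They were grown without feeder cells and with LIF, in 2 replicates of about 2000000 cells. Lens tissue came from CD-1 mice at postnatal day 0.5 and was separated by microdissection, with 30 pooled lens samples in each of 2 Hi-C replicates per cell type and 200 pooled lenses for the ChIP-seq. Strain and cell type therefore cannot be told apart where ES cells are set beside lens. The 2 Hi-C replicates of a cell type had been merged before loops and TADs were called, and the labels give 1 ChIP-seq sample for each lens cell type. The methods of the study describe biological replicates of the ChIP-seq, so a peak list may pool them. All values below therefore come from 1 list per cell type, there is no replicate error, and differences between cell types are counts and values without a test.

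In a dividing cell, D cyclins activate CDK4 and CDK6, which phosphorylate the retinoblastoma protein and its relatives and thereby release E2F factors to drive S phase genes. CDK inhibitors of the Cip/Kip family (p21, p27 and p57) and of the INK4 family oppose these kinases. In the lens, epithelial cells divide, and cells that become fibers leave the cycle for good. p27 and p57, the products of Cdkn1b and Cdkn1c, and the retinoblastoma protein are needed for that exit. CTCF is a zinc-finger protein that, with cohesin, holds many loop anchors and TAD borders in place.

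Listed loops numbered 8459 for ES cells, 8005 for epithelium and 7682 for fiber cells, together with 3604, 1796 and 2641 TADs and with 16433 CTCF peaks in epithelium and 23868 in fiber cells. Read depth was not used here, and the fiber peak list is the longer one. The lists hold no expression values, so the identity of the dissected tissues could not be checked against marker genes.

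The table of RefSeq promoter windows used here (GRCm38.p6, 250 bases before to 50 after a start) held 9 windows, from 6 of the 10 genes. Windows of Cdkn1c, Rb1, Ccnd1 and Ccnd2 were not analysed here. A partial CTCF motif, AGGNGGCNG or AGGNGGCNC on either strand, occurred in 4 of these 9 windows and in 21.6% of the 32851 windows of all genes. These 2 forms differ in the last letter only, and their matches can overlap. The 6 windows below are all those that a CTCF peak or a loop anchor overlapped. Each runs 5′ to 3′ on the strand of its gene, with motif matches in capitals.
Cdkn2a, start of the p16 transcript, chr4:89282143-89282442, minus strand: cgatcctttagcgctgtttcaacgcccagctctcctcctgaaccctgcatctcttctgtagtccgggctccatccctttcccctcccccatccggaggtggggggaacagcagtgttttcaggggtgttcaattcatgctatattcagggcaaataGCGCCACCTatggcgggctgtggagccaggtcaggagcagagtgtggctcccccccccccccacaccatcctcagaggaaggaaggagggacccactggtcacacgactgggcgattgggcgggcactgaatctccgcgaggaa
Cdkn2a, start of the p19 transcript, chr4:89294570-89294869, minus strand: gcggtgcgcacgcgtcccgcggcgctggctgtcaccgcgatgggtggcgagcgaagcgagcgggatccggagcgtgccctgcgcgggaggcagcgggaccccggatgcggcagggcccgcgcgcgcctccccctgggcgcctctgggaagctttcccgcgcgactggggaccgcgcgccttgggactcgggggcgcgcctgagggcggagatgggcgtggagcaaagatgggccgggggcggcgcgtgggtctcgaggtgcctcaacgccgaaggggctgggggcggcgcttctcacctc
Cdkn1a, first start, chr17:29090729-29091028, plus strand: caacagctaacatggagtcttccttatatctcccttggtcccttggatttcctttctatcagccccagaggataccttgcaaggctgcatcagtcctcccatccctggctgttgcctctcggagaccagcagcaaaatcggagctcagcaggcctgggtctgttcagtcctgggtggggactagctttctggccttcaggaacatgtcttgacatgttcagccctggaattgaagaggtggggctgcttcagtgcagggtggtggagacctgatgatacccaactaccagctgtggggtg
Cdkn1a, second start, chr17:29093519-29093818, plus strand: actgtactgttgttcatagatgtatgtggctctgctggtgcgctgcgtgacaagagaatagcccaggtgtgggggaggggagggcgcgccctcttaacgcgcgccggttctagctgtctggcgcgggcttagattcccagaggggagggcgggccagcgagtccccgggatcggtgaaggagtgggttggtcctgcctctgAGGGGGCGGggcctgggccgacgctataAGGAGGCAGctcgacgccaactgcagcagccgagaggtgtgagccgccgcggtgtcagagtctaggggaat
E2f3, first start, chr13:29986014-29986313, minus strand: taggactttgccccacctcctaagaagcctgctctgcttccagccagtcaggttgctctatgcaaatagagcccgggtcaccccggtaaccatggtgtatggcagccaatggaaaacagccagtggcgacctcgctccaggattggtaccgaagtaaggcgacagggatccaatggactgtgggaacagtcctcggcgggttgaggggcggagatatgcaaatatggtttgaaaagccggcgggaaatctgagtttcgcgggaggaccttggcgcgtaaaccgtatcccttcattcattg
E2f3, second start, chr13:29984342-29984641, minus strand: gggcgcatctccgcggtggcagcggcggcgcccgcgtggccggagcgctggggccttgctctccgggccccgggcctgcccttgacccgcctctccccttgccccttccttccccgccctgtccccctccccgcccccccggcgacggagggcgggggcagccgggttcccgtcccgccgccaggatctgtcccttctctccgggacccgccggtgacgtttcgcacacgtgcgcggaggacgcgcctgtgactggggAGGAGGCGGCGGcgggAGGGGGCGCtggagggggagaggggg
The first of these held a match within the fiber CTCF peak that covers the start, and the p19 window held none. At Cdkn1a and E2f3 the first windows held no match and the second windows 2 and 3 matches, with no peak on any of these 4 windows. The Cdkn1b window, which no peak or anchor overlapped, held 3 matches.

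Of the 10 genes, 7 had a loop in ES cells, 6 in epithelium and 6 in fiber cells, with 13, 10 and 8 loops. Among all protein-coding genes the share with a loop was 37.3%, 36.2% and 34.5%. Cdkn1a, Cdkn1c, Rb1, Ccnd1 and Ccnd2 had a loop in all 3 lists. For a loop in all 3 lists, the share of all protein-coding genes is not given here. Cdkn1b and Rbl1 had none in any list, Cdkn2a had loops in ES cells alone, E2f1 in fiber cells alone, and E2f3 in ES cells and epithelium. Some of these calls depended on the rule. Without the widening of the gene body or with anchor midpoints, the 315 kb loop of Cdkn1c was lost from all 3 lists. Cdkn1c then had no fiber loop, while ES cells and epithelium each kept another of its loops. The ES cell loop of Rb1 and the fiber loop of E2f1 were lost at an FDR below 0.01. So were the 170 kb loop of Cdkn1c and the 180 kb loop of Ccnd1 in epithelium, where both genes kept another loop. The ES cell loops of Cdkn2a all had 25-kb anchors. With 20 kb of widening, Cdkn1b gained a loop in ES cells, E2f1 in ES cells and epithelium, and Cdkn2a in both lens cell types. The genes are of ordinary size, with a median length of 15.3 kb against 17.3 kb for all protein-coding genes, and range from 2.72 kb (Cdkn1c) to 133 kb (Rb1).

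**Figure D1:**
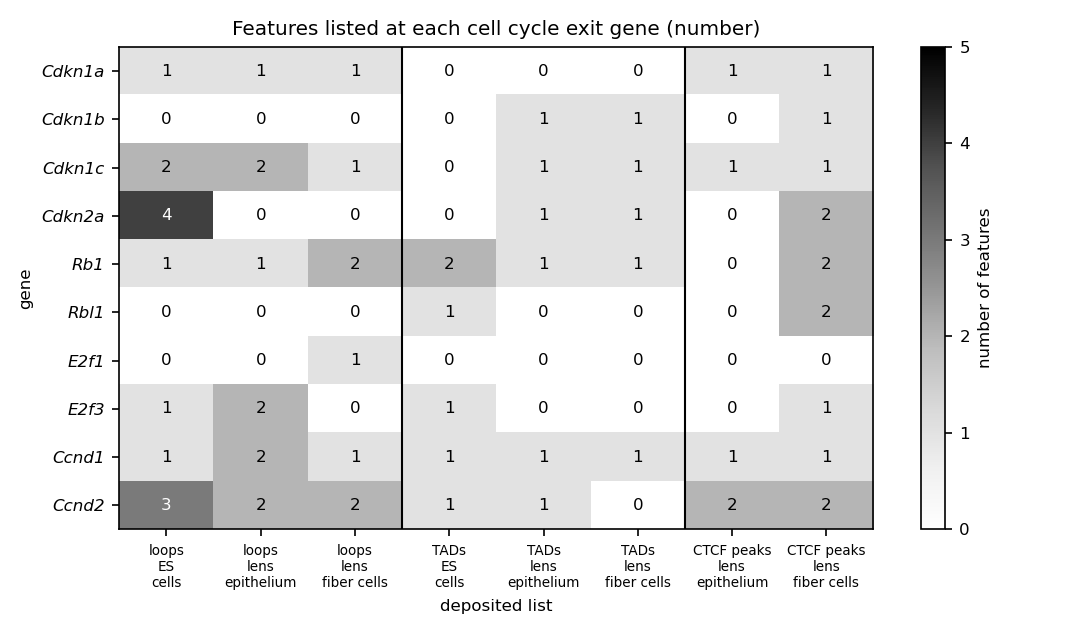
Number of loops, TADs and CTCF peaks assigned to each of the 10 genes (rows) in each of the 8 lists (columns), with darker cells for higher numbers. Cdkn2a has 4 ES cell loops and no lens loop, and Ccnd1 is the gene with a feature in all 8 lists.

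TADs touched 5 of the 10 genes in ES cells, 6 in epithelium and 5 in fiber cells, against 40.0%, 21.1% and 29.3% of all protein-coding genes. A TAD held the whole gene body for 2 genes in ES cells, 4 in epithelium and 5 in fiber cells. The share of all protein-coding genes held whole is not given here, so these counts have no baseline. Median TAD size differed between the lists, at 145 kb in ES cells, 335 kb in epithelium and 135 kb in fiber cells. The CDK inhibitor genes Cdkn1b, Cdkn1c and Cdkn2a lay in a TAD in both lens lists and in none in ES cells. A further CDK inhibitor gene, Cdkn1a, lay in no TAD of any list. Rbl1 and E2f3 were touched by a TAD in ES cells alone. Shares of all protein-coding genes with these patterns are not given here, so the patterns are not read as traits of the genes. A TAD border lay within 10 kb of 4 genes in ES cells, 3 in epithelium and 2 in fiber cells, beside 27.7%, 13.3% and 19.6% of all genes.

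CTCF peaks were found at 4 of the 10 genes in lens epithelium (5 peaks) and at 9 in lens fiber cells (13 peaks), against 31.2% and 45.9% of all protein-coding genes. All 5 epithelium peaks, at Cdkn1a, Cdkn1c, Ccnd1 and Ccnd2, overlapped a fiber peak. The other 8 fiber peaks, at Cdkn1b, Cdkn2a, Rb1, Rbl1 and E2f3, had no epithelium counterpart, and E2f1 had no peak in either list. The share of all peaks with a counterpart in the other list is not given here. These counts are therefore not read as a trait of these genes. The fold enrichment of the 5 shared fiber peaks ran from 7.92 to 12.1, and that of the 8 fiber peaks without counterpart from 4.22 to 6.42. Shared and unshared peaks of the whole fiber list were not compared, so whether this split is particular to these genes was not tested. The median over the whole fiber list was 6.44, so each of the 8 lay below it. When the fiber list was reduced to its strongest 16433 peaks, the size of the epithelium list, 7 fiber peaks remained at these genes, and those without counterpart were 1 at Cdkn2a and 1 at Rb1. The part of list length and read depth in this difference was otherwise not tested.

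**Figure D2:**
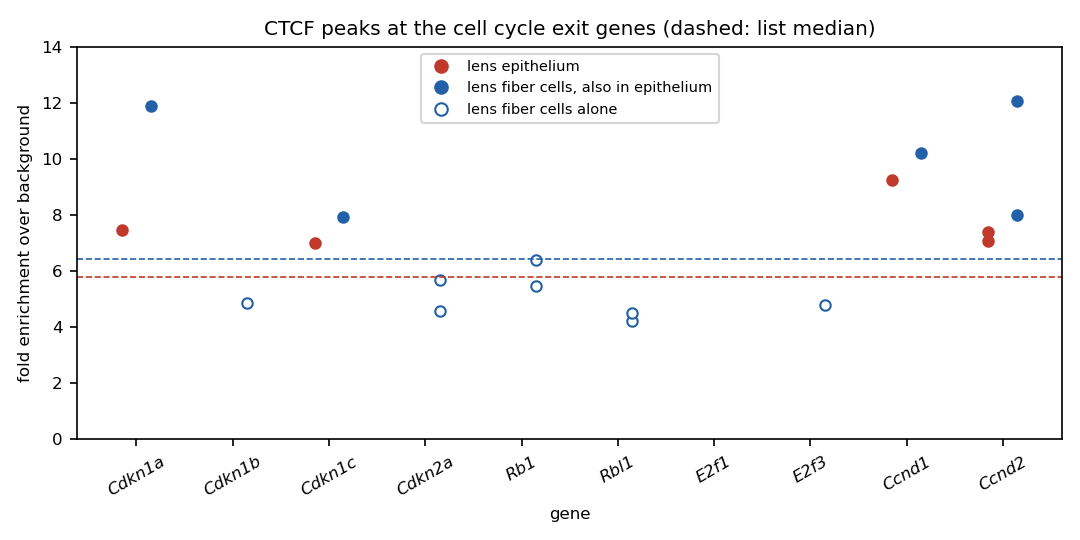
Fold enrichment of each CTCF peak at the 10 genes in lens epithelium (red) and lens fiber cells (blue), as filled circles where the peak is in both lists and open circles where it is in the fiber list alone. Dashed lines mark the list medians, 5.78 in epithelium and 6.44 in fiber cells, and all open circles lie below the fiber median.

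The Cip/Kip inhibitor gene Cdkn1a (chr17:29090979-29100722), whose product p21 is induced by p53, was joined to a site 45 to 50 kb upstream in all 3 cell types. The ES cell loop of 45 kb held 83 observed contacts where 25.6 were expected from its surroundings, the epithelium loop of 45 kb held 32 where 8.39 were expected, and the fiber loop of 50 kb held 75 where 34.2 were expected. The ratio of observed to expected contacts was 3.25 in ES cells (95% exact Poisson interval 2.59 to 4.02), 3.81 in epithelium (2.61 to 5.38) and 2.19 in fiber cells (1.73 to 2.75). Such intervals cover the counting error of the observed contacts only. The fiber loop was called with anchors of 10 kb and the others with 5 kb, and ratios tend to be lower for wider anchors, with list medians in fiber cells of 4.41 at 5 kb, 3.01 at 10 kb and 2.41 at 25 kb.

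The gene-side anchors at Cdkn1a did not coincide. The epithelium anchor, chr17:29090001-29095000, covered both promoter windows and ended short of the CTCF peak. The ES cell anchor, chr17:29095001-29100000, missed both windows and covered the peak position, and the 10-kb fiber anchor covered windows and peak. The peak itself had its summit 1962 bp downstream of the second start in epithelium (fold enrichment 7.48) and 1889 bp downstream in fiber cells (11.9, rank 1024 of 23868). In fiber cells both anchors held a CTCF peak, and the far anchor overlapped Srsf3, a splicing factor gene. Cdkn1a lay in no TAD of any list, but loops spanned it, of which the shortest were 120 kb, 100 kb and 110 kb long in ES cells, epithelium and fiber cells.

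Cdkn1b (chr6:134920401-134925525), which encodes p27, had no loop anchor in any list. It lay in a TAD of 310 kb in epithelium, chr6:134640001-134950000, and in one of 105 kb in fiber cells, chr6:134845001-134950000. The right border was the same in both, 24.5 kb from the gene, and the left border lay 280 kb away in epithelium and 75.4 kb away in fiber cells. In ES cells no TAD touched the gene, but a 75 kb loop spanned it, with 43 observed contacts and a right anchor, chr6:134945001-134950000, that ended at the position of the lens TAD border. The sole CTCF peak at Cdkn1b was a weak fiber peak 875 bp downstream of the start (fold enrichment 4.87, rank 21423 of 23868), and the nearest epithelium peak was 56.9 kb away.

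Cdkn1c (chr7:143458339-143461059), which encodes p57 and lies in an imprinted cluster with Kcnq1 and Igf2, had a loop with the same anchors in all 3 cell types. This 315 kb loop joined the 5-kb anchors chr7:143150001-143155000 within Kcnq1 and chr7:143465001-143470000 beside Cdkn1c. The latter anchor lay outside the gene body and was assigned only through the widening by 5 kb. In ES cells, epithelium and fiber cells it held 72, 39 and 50 observed contacts against 11.0, 5.42 and 6.82 expected. The ratios were 6.54 (5.12 to 8.24), 7.19 (5.11 to 9.83) and 7.33 (5.44 to 9.67), and their Poisson intervals overlapped. In both lens cell types this loop closed a TAD, chr7:143150001-143465000, whose right border lay 3.94 kb from the gene. No TAD touched Cdkn1c in ES cells.

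A CTCF peak lay 3.02 kb to the right of Cdkn1c in epithelium (fold enrichment 7.01) and 3.06 kb to the right in fiber cells (7.92), outside the gene body. These peaks ended short of the anchor of the 315 kb loop beside Cdkn1c, which held another peak in each lens cell type. The anchor of the 315 kb loop within Kcnq1 held a fiber peak and no epithelium peak. ES cells had a second loop of 790 kb from Cdkn1c to Igf2, the growth factor gene of the neighboring imprinted domain, with 21 observed contacts against 4.36 expected (ratio 4.82, interval 2.98 to 7.37). This loop had no counterpart in either lens list. Epithelium had a second loop of 170 kb to Kcnq1 with 52 observed contacts against 18.2 expected, again without counterpart. The highest of its FDR values was 0.0408.

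Cdkn2a (chr4:89274473-89294619), which encodes p16 and, from a second start, p19 (ARF), a regulator of p53, was the member whose loops were all listed in ES cells. One 25-kb anchor, chr4:89275001-89300000, covered both starts and joined 4 sites on chromosome 4. These were Nfia at 8475 kb with 18 observed contacts against 2.65 expected, Dmrta2 at 20700 kb with 23 against 1.62, Foxd2 and Foxe3 at 25625 kb with 33 against 3.98, and Dmbx1 at 26650 kb with 18 against 2.00. All 5 partners are genes of developmental transcription factors. The ratios of 6.80, 14.2, 8.30 and 9.0 rest on few contacts, with an interval of 9.03 to 21.4 for the highest and of 4.03 to 10.7 for the lowest.

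Some far anchors were also joined to each other. Of the 20 ES cell loops over 3 Mb on chromosome 4, 4 are those of Cdkn2a itself and 3 linked its far sites to each other. Epithelium had 2 loops and fiber cells 5 loops of that length on the chromosome, none of them between these sites, which were themselves taken from loops of the ES cell list. Over the whole lists, loops over 3 Mb numbered 315 in ES cells, 84 in epithelium and 82 in fiber cells. Among protein-coding genes, 406 had at least 1 such loop in ES cells and 55 had at least 4, so Cdkn2a was 1 of 55. The other 9 genes had none in any list. Without Cdkn2a, the ES cell loops of these genes numbered 9 and were all under 1 Mb.

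**Figure D3:**
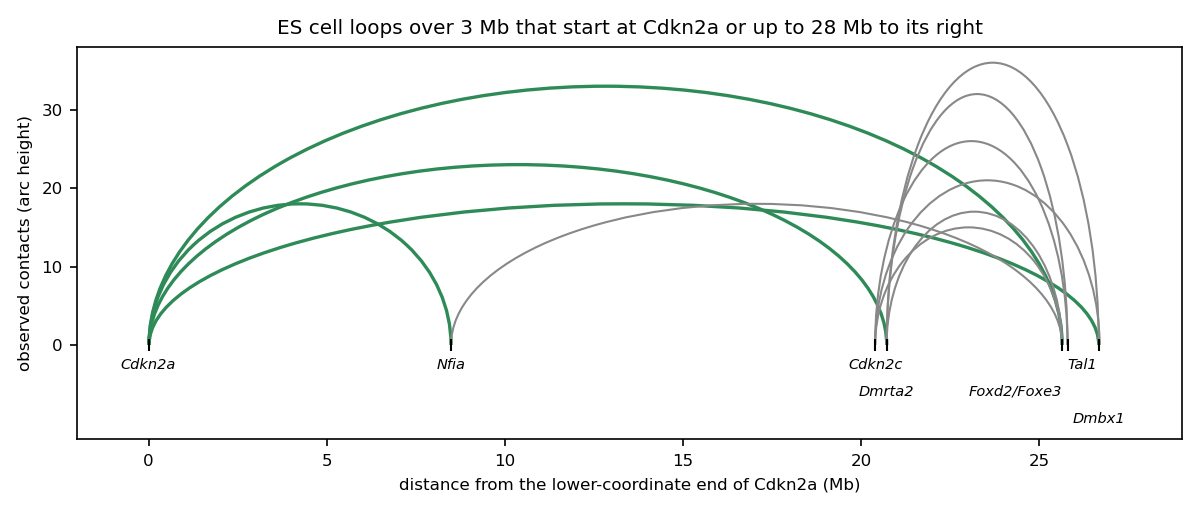
ES cell loops over 3 Mb that start at Cdkn2a or to its right within the plotted span, drawn as arcs over the distance from the gene in Mb, with arc height giving the observed contacts; green arcs start at Cdkn2a and gray arcs at other sites. The 4 green arcs end at Nfia, Dmrta2, Foxd2/Foxe3 and Dmbx1 with 18 to 33 contacts, and gray arcs link the same sites to each other and to Cdkn2c and Tal1.

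In the lens, Cdkn2a lay in a TAD of 410 kb in epithelium and of 385 kb in fiber cells, while no TAD touched it in ES cells. A loop with 5-kb anchors spanned the gene in every cell type, of 375 kb in ES cells (27 observed contacts), 370 kb in epithelium (14) and 365 kb in fiber cells (18). The highest FDR value of the epithelium loop was 0.0958, against 2.5e-07 in ES cells and 0.00377 in fiber cells. With 25-kb anchors, a 175 kb loop in ES cells (164) and a 650 kb loop in epithelium (49) spanned it too. Fiber cells had a CTCF peak upstream of each start. One summit was 147 bp upstream of the p16 start (fold enrichment 5.70, −log10 q 6.88), in a peak that covers the motif match in the first sequence above. The other was 284 bp upstream of the p19 start (fold enrichment 4.56, −log10 q 3.70) and lay just outside the second sequence. The nearest epithelium peak was 128 kb from the gene body.

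The pocket protein gene Rb1 (chr14:73192858-73325951), the retinoblastoma tumor suppressor, was looped to a region to the left of the gene in all 3 cell types, but from different places in its body. In ES cells a 165 kb loop ended at chr14:73270001-73275000, with 28 observed contacts against 8.89 expected. A 200 kb loop in epithelium ended at chr14:73300001-73310000 (53 against 14.1). Fiber cells had a 195 kb loop to chr14:73300001-73305000 (27 against 7.08) and a 170 kb loop to chr14:73280001-73290000 (60 against 16.6). The 200 kb and 195 kb lens loops were counterparts of each other, with anchor midpoints within 10 kb, and the ES cell loop had no counterpart at that tolerance. Its midpoints lay 7.5 kb and 12.5 kb from those of the 170 kb fiber loop, so that these were counterparts within 25 kb.

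The TADs at Rb1 differed between ES cells and the lens. ES cells had a 165 kb TAD, chr14:73105001-73270000, that ended within the gene at the ES cell loop anchor, and a 175 kb TAD that began at chr14:73325001, just inside the right end of the gene. Neither held the gene. In the lens a single TAD of 410 kb in epithelium, chr14:73095001-73505000, and of 415 kb in fiber cells, chr14:73095001-73510000, held all of Rb1, and fiber cells had a 400 kb loop over the same interval. Rb1 had 2 fiber CTCF peaks. The stronger, at chr14:73303227-73303566 (fold enrichment 6.42), lay in the anchor of the 195 kb fiber loop, whose far anchor held a peak too. The weaker, at chr14:73266261-73266493 (5.48), lay short of the ES cell TAD end. The nearest epithelium peak was 93.8 kb from the gene.

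Rbl1 (chr2:157145893-157204534), which encodes the pocket protein p107, had no loop anchor in any list, and no loop of up to 3 Mb spanned it. A 155 kb TAD in ES cells, chr2:157120001-157275000, held the gene, and no lens TAD touched it. Its 2 CTCF peaks were in fiber cells and were among the weakest of that list, with fold enrichments of 4.22 and 4.49 and ranks 23154 and 22265 of 23868.

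E2f1 (chr2:154559400-154569892), an activator of S phase genes, had a single loop of 50 kb in fiber cells, from chr2:154550001-154560000 to chr2:154600001-154610000. The gene-side anchor reached the 3′ end of the gene, not its start, and the far anchor overlapped Pxmp4, which encodes a peroxisomal membrane protein. The loop held 78 observed contacts against 36.9 expected, a ratio of 2.11 (1.67 to 2.64) that was higher than in only 4.02% of the 10-kb loops of the fiber list. The highest of its FDR values was 0.0163, so the gene had no loop in any list at an FDR below 0.01. In epithelium a 190 kb loop ended at the same far anchor and spanned E2f1 with 38 observed contacts, and in ES cells a 470 kb loop spanned it (18). No TAD touched the gene, and its nearest fiber CTCF peak, 6.57 kb away and thus just outside the 5 kb limit, lay in the gene-side anchor.

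E2f3 (chr13:29906575-29986064), a second E2F activator, had a 100 kb loop from its start into the region upstream of it in ES cells (40 observed contacts against 10.9 expected) and in epithelium (48 against 19.3). The ratios were 3.68 (2.63 to 5.02) with 5-kb anchors and 2.48 (1.83 to 3.29) with 10-kb anchors. Fiber cells had no loop anchored at E2f3. All 3 cell types had a loop over the whole gene that ended at this upstream site, of 230 kb in ES cells (20 contacts), 220 kb in epithelium (41) and 230 kb in fiber cells (47). Epithelium had a further loop of 125 kb from E2f3 to Cdkal1, a tRNA-modifying enzyme gene on its other side, with 155 observed contacts against 68.8 expected and 25-kb anchors.

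In ES cells the 100 kb loop closed a TAD, chr13:29985001-30085000, that began at the start of E2f3. No lens TAD touched the gene. The single CTCF peak at E2f3 was a fiber peak 1168 bp downstream of the second start (fold enrichment 4.80, −log10 q 4.56). It thus stood in the cell type without a loop anchored at the gene.

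**Figure D4:**
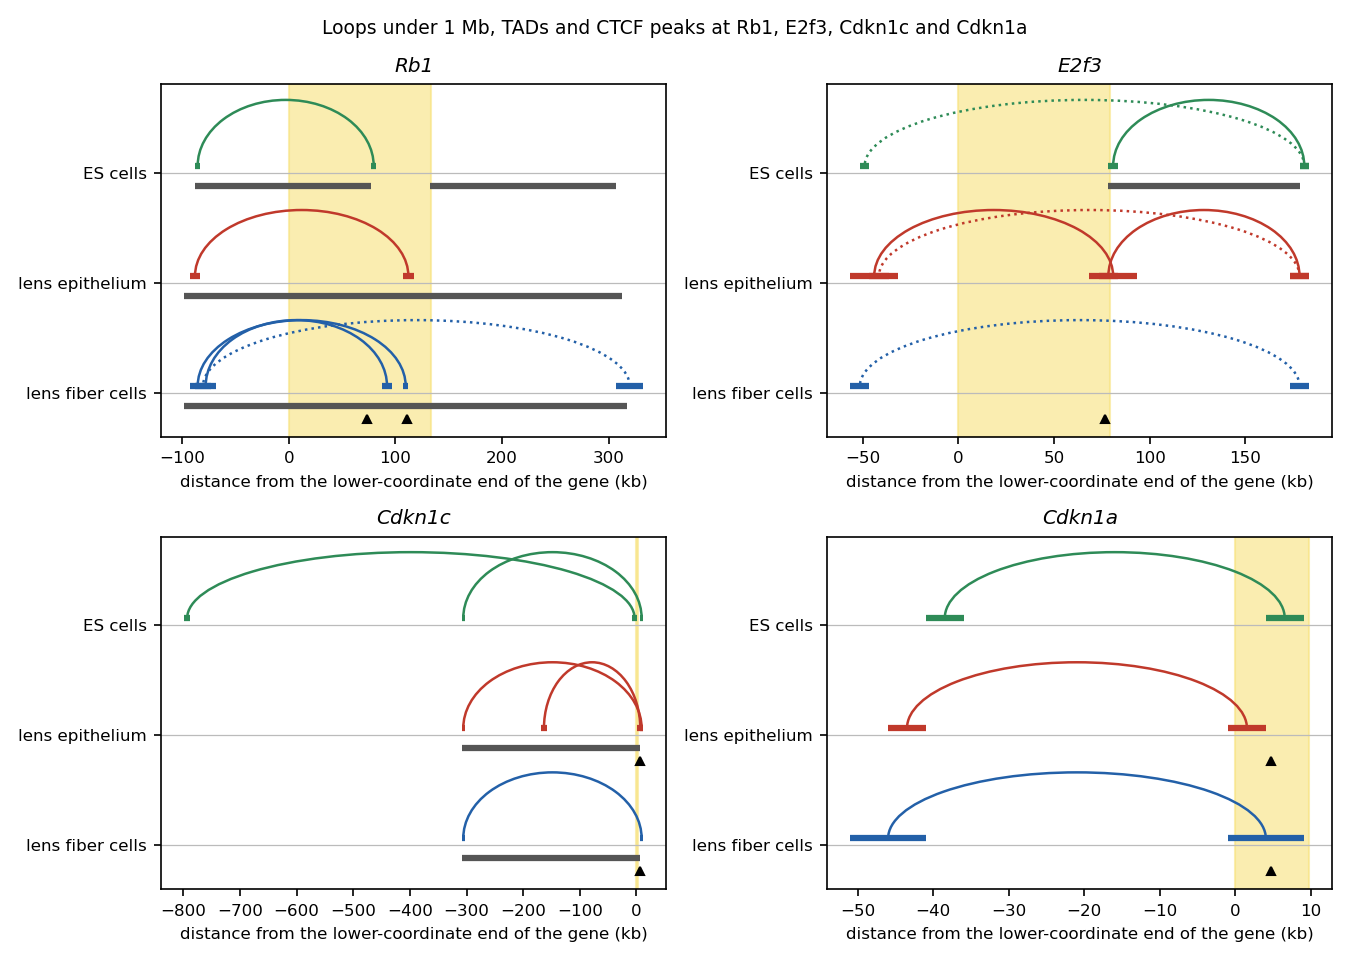
Loops under 1 Mb (arcs, with thick bars for the anchors), TADs (gray bars) and CTCF peak summits (triangles, lens only) at 4 genes in the 3 cell types, over the distance from the lower-coordinate end of the gene (yellow band) in kb; dotted arcs at Rb1 and E2f3 are the shortest loops of up to 1 Mb that span the gene. The 315 kb loop of Cdkn1c has the same anchors in all 3 rows, and the ES cell TADs at Rb1 leave out the part of the gene near its right end that the lens TADs hold.

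Both D cyclin genes had loops in every cell type and, within the gene body, CTCF peaks shared by the lens cell types. Ccnd1 (chr7:144929931-144939831), which encodes cyclin D1, was looped to Tpcn2, a lysosomal channel gene, in all 3 cell types. ES cells and epithelium had the same 305 kb loop, chr7:144935001-144940000 to chr7:145240001-145245000, with 62 observed contacts against 9.91 expected and 47 against 7.06. The ratios were 6.25 (4.79 to 8.02) in ES cells and 6.66 (4.89 to 8.85) in epithelium. The fiber loop was 290 kb long with 92 contacts against 22.6 expected, a ratio of 4.06 with 10-kb anchors. Its far midpoint lay 17.5 kb from that of the other loops, so it was no counterpart within 10 kb and was one within 25 kb. Epithelium also had a 180 kb loop with 54 contacts against 16.4 expected, whose highest FDR value was 0.0168.

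A TAD began at the left end of Ccnd1 in every cell type. The TADs were 405 kb long in ES cells, 325 kb in epithelium and 330 kb in fiber cells. The borders lay 0.070 kb inside the gene in ES cells and epithelium, and 4.93 kb outside it in fiber cells. The CTCF summits of the lens cell types were 39 bp apart, 7.68 kb and 7.72 kb from the left end of the gene, with fold enrichments of 9.25 in epithelium and 10.2 in fiber cells. The fiber peak ranked 886 of 23868 and the epithelium peak 1160 of 16433. Ccnd1 and Cdkn1c lie 1469 kb apart on chromosome 7. A 1410 kb ES cell loop with 52 observed contacts, chr7:143540001-143545000 to chr7:144950001-144955000, spanned Ccnd1 and had its other anchor between the genes, and a second of 1730 kb (51) did likewise.

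Ccnd2 (chr6:127125162-127152188), which encodes cyclin D2, had 3 ES cell loops and 2 loops per lens cell type, all to the right. The loop of 215 kb in ES cells (45 observed contacts against 11.0 expected) had counterparts of 220 kb in epithelium (63 against 14.6) and 210 kb in fiber cells (31 against 6.66). The loop of 300 kb to Parp11, a gene of the PARP family, was in ES cells (33 against 5.94) and epithelium (42 against 10.2), with a 310 kb counterpart in fiber cells (47 against 15.0). The third ES cell loop of 115 kb (43 against 11.7) had no counterpart. TADs of 320 kb in ES cells and 325 kb in epithelium began within 5 kb of the left end of Ccnd2, whereas no fiber TAD touched the gene.

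Ccnd2 held 2 CTCF peaks in each lens cell type, at the same sites. At the left site, 17.1 kb from the left end of the gene, the fold enrichment was 7.39 in epithelium and 8.02 in fiber cells. At the right site, 22.7 kb from the left end, it was 7.07 in epithelium and 12.1 in fiber cells, where the peak ranked 428 of 23868. The right site lay in the gene-side anchor of every lens loop of Ccnd2.

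**Figure D5:**
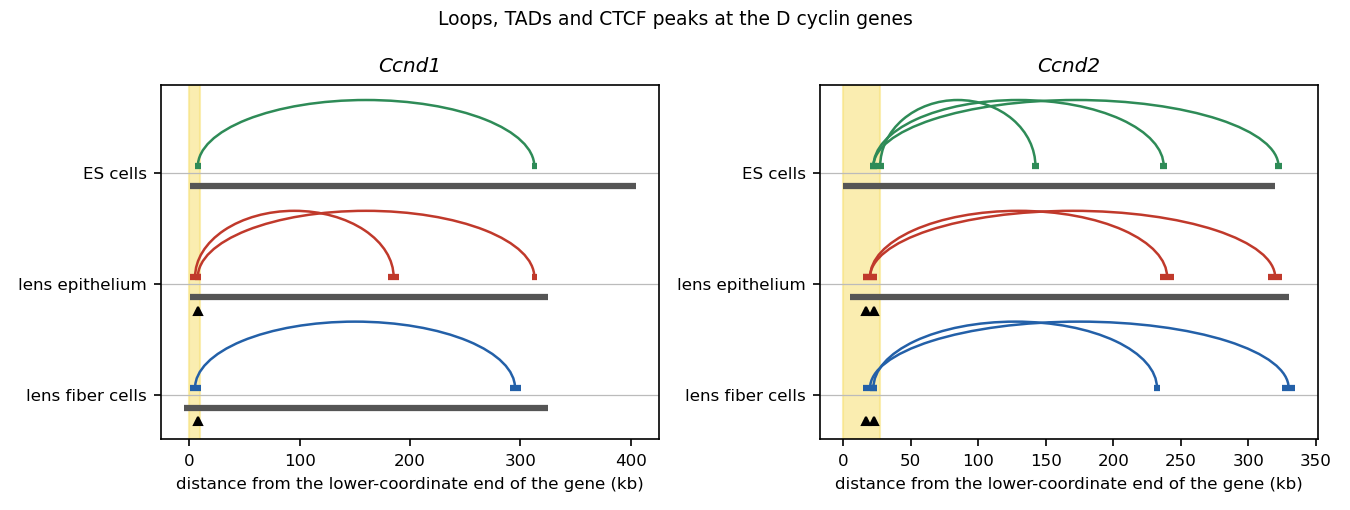
Loops (arcs, with thick bars for the anchors), TADs (gray bars) and CTCF peak summits (triangles, lens only) at Ccnd1 and Ccnd2 in the 3 cell types, over the distance from the lower-coordinate end of the gene (yellow band) in kb. All arcs run to the right of the gene, over 115 to 310 kb, and Ccnd2 has no TAD in the fiber row.

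Over all 10 genes, 6 of 13 ES cell loops, 7 of 10 epithelium loops and 5 of 8 fiber loops had a counterpart in another list, with both anchor midpoints within 10 kb. For all loops of the lists the share was 43.0%, 64.2% and 65.6%. Of the 10 epithelium loops, 5 had a fiber counterpart and 6 an ES cell counterpart. With both anchors required to overlap, these counts were 3 and 5, and with midpoints within 25 kb they were 6 and 6. Pairwise shares over all epithelium loops are not given here, so the counts are not read as a trait of these genes. The median ratio of observed to expected contacts was 5.55 in ES cells, 3.79 in epithelium and 3.71 in fiber cells, beside list medians of 3.06, 3.04 and 2.83. Without the 4 loops of Cdkn2a, the ES cell median was 4.10. Since the ratio moves with anchor width, each loop was also ranked among the loops of its own width and list, and the median percentile was 88.3 in ES cells (56.0 without Cdkn2a), 62.2 in epithelium and 58.6 in fiber cells. Of the 31 loops, 14 had 5-kb, 12 had 10-kb and 5 had 25-kb anchors, and the highest of the 4 FDR values of a loop ran from 9.2e-19 to 0.0468. The 165 kb ES cell loop of Rb1, at 0.0468, was the weakest of them by this measure.

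None of the 10 epithelium loops held an epithelium CTCF peak at both anchors, against 15.7% of all epithelium loops, while 8 held one at 1 anchor. With a peak at 1 or both anchors counted together, the share over the whole epithelium list was 60.5%. Of the 8 fiber loops, 4 held a fiber peak at both anchors (39.1% of all fiber loops) and 3 at 1 anchor (83.4% for 1 or both anchors). The 4 were the loops of Cdkn1a, the 315 kb loop of Cdkn1c, the 195 kb loop of Rb1 and the 210 kb loop of Ccnd2. The gene-side anchor held a peak in 6 of 10 epithelium and 7 of 8 fiber loops, and the far anchor in 2 and 4. The 6 epithelium loops were all at Cdkn1c, Ccnd1 or Ccnd2, so they repeat the same sites. Shares of gene-side and far anchors with a peak over all loops are not given here. The contrast is therefore not read as a trait of these genes. When the epithelium loops were read with fiber peaks, 6 of 10 held a peak at both anchors, and when fiber loops were read with epithelium peaks, 1 of 8 did, so these counts move with the peak list used. CTCF binding in ES cells was not analysed here.

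Among 25 other cell cycle genes (further CDK inhibitors, pocket proteins, E2F and DP factors, cyclins, CDKs and regulators of their activity), 8 had a loop in ES cells, 9 in epithelium and 9 in fiber cells, with 16, 13 and 13 loops. TADs touched 7, 5 and 7 of them. CTCF peaks were found at 9 in epithelium and 12 in fiber cells. Among all protein-coding genes, 37.3%, 36.2% and 34.5% had a loop, and TADs touched 40.0%, 21.1% and 29.3%. The shares with a CTCF peak were 31.2% in epithelium and 45.9% in fiber cells. The largest loop totals were at E2f6, a repressive E2F, with 3 loops in each cell type, and at E2f7, another repressor, with 3 in ES cells, 2 in epithelium and 2 in fiber cells. Cdc25a, the phosphatase that activates CDK2, had 2, 1 and 2, and Ccnd3, the third D cyclin gene, had 1, 2 and 1.

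Cdkn2c, the INK4 inhibitor gene for p18, had 4 loops in ES cells and none in the lens, as Cdkn2a did. Of the 4 loops, 3 were over 3 Mb, and they reached Tal1 at 5400 kb, Foxd2 at 5240 kb and a site at 6300 kb. The fourth joined Dmrta2 at 325 kb. Foxd2 and Dmrta2 were partners of Cdkn2a as well. Cdkn2b, which lies 11.7 kb from Cdkn2a and encodes the INK4 inhibitor p15, had a loop in each cell type. These were of 175 kb to Mtap in ES cells and of 200 kb to the other side in both lens cell types. Their 25-kb anchor at Cdkn2b, chr4:89300001-89325000, adjoined the ES cell anchor at Cdkn2a. It began just beyond the 5 kb limit of Cdkn2a, so the 2 genes are told apart here by that limit. Compared by presence or absence in the 8 lists, Ccnd1 and E2f7 were alike with a feature in all 8, Cdkn1a and Cdc25a were alike with loops and CTCF peaks in all lists and no TAD, and none of the other 8 genes had a match among the 25.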

How the data were processed

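The authors aligned Hi-C reads to mm10 with BWA, built contact maps with Juicer, merged both replicates of a cell type and called loops with HiCCUPS (Juicer Tools 2.13.06) and TADs with Arrowhead. Of the deposited loop columns, observed contacts are raw counts, expected contacts are a modelled signal (in the ES cell list 1 such column falls below 0), and the FDR columns are q-values. At the ES cell loops of these genes, the lowest expectation used for a ratio was 1.62. CTCF reads were aligned with BWA and peaks called with MACS2, whose deposited columns give a score, a fold enrichment as a ratio, and the −log10 of the p-value and q-value.

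Positions are 1-based. Gene bodies came from the RefSeq table of GRCm38.p6, which shares the coordinates of mm10. Python 3.11.15 with pandas 2.3.3, numpy 2.4.6 and scipy 1.17.1 was used. Features were joined by an overlap of at least 1 bp, with loops counted as shared when both anchor midpoints lay within 10 kb, and ratios used the donut expectation. The overlap rules were tested on simulated data. With 1 list per cell type, no test was run. Depth was not used, so precision is given by 95% exact Poisson intervals of observed contacts alone. Alternatives changed the widening, anchor, FDR, tolerance, TAD and peak rules. No column of the authors' own comparisons was used.

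The members and gene lists were chosen with earlier results of these data known. The text names all 10 members, the protein-coding genes at the other anchor of their loops, and, of the 25 other cell cycle genes, the 5 with the highest loop totals and those identical to a member in presence over the 8 lists. Cdkn2b and the partners of the Cdkn2c loops were added after their values were seen.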

Additional observations from a re-analysis of the deposited data

How the results depend on the processing

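Over 22 counts, 68 alternatives were computed, and 56 stayed within 1.5 times the value given in the report. The other 12 moved. When both anchors had to overlap instead of lying within 10 kb, the loops shared between epithelium and fiber cells numbered 3 (from 5) in either list, and those shared between fiber cells and ES cells 1 (from 4) in either list. ES cell TADs were at 2 genes (from 5), both when they had to hold the whole gene and when those under 200 kb were left out. Fiber CTCF peaks numbered 21 with gene bodies widened by 20 kb and 7 when its weakest peaks were dropped to match the number in epithelium (from 13). Epithelium loops with CTCF at both anchors numbered 1 with anchors widened by 5 kb and 6 with fiber peaks (from 0), and fiber loops 7 with widened anchors and 1 with epithelium peaks (from 4). Wider windows and longer lists hold more peaks by construction, and the cause of the other shifts was not tested. No paired analysis was possible because the replicates were merged before the lists were made, and for the same reason no replicate could be left out. The loops of Cdkn2a rest on 18 to 33 contacts each, and a loop missing from a list was not called at the depth of its map, which does not show that it is absent.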
